A study of Mus musculus with 21 samples.

Results

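Expression of 8 Sox genes linked to lung cell lineages (Sox2, Sox9, Sox4, Sox11, Sox5, Sox7, Sox17 and Sox18) was compared between lungs of fetuses exposed to cigarette smoke (CS) and lungs of control fetuses (AIR). These are 8 of the 22180 genes that the mouse mRNA arrays named by a single symbol, and 12 other Sox genes were measured on the same arrays. Members were taken by name, and of several probe sets for a gene the one with the highest average across the 21 arrays was used. The CS group held whole lungs of 12 fetuses (6 males and 6 females) whose mothers inhaled smoke during pregnancy, and the AIR group those of 9 fetuses (5 males and 4 females). All were wild-type Balb/c fetuses at E18.5, with 1 array per fetus, and dams were exposed from gestational day 2.5 to 17.5, to smoke or, for AIR, to filtered air. The sample labels call the AIR mothers untreated. A male and a female were taken from a litter, but the labels do not say which fetuses were littermates, so p-values treat littermates as independent and may be too small. The authors left 3 further AIR arrays out after quality control. Defining genes of lung (Nkx2-1, the surfactant genes Sftpc, Sftpb and Sftpa1, Ager, Hopx, Foxf1, Tbx4, Cdh5 and Scgb1a1) were bright in every library, with a mean log2 intensity of 7.75 to 8.50 in CS and 8.17 to 8.60 in AIR lungs.

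SOX proteins are transcription factors that bind DNA through a shared HMG box and often mark the identity of a lineage. In the developing lung, SOX2 marks the proximal epithelium that forms the conducting airways, while SOX9 marks the progenitors at the distal tips of the branching tubes and, with SOX5, the cartilage of the trachea and bronchi. SOX7, SOX17 and SOX18 form the SoxF group, known for its roles in blood and lymphatic endothelium, and SOX4 and SOX11 belong to the SoxC group, found in many immature cell types.

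The SoxC pair has a promoter in the RefSeq table (assembly GRCm38.p6), shown here because Sox4 was higher in CS lungs at an unadjusted p under 0.05 while Sox11 was not. No test compared the pair, and the p of Sox4 was above 0.05 in most fits with 1 array left out. Each window runs from 250 bases before to 50 bases after the start of the gene, 5′ to 3′ on the gene's strand, and capitals mark matches on either strand to CCAAT (the CCAAT box), to GGGCGG (the GC box) or to TTTGAA (the CHR element). The Sox4 window is chr13:28953650-28953949 on the minus strand and the Sox11 window chr12:27342669-27342968 on the minus strand.
Sox4: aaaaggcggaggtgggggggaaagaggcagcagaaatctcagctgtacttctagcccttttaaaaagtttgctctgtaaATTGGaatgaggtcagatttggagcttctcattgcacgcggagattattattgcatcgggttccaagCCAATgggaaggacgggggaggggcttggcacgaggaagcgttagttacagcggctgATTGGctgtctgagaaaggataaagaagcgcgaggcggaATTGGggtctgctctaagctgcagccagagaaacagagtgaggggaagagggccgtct
Sox11: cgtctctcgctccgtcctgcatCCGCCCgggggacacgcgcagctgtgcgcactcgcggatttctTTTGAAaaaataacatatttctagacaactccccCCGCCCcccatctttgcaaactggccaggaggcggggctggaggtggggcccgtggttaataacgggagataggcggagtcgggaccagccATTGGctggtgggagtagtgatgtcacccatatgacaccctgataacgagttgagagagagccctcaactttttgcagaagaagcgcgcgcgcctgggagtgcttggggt
In Sox4, 4 CCAAT matches began 171, 104, 47 and 8 bases before the start. In Sox11 there was 1 CCAAT match, 60 bases before the start, with 2 matches to GGGCGG (228 and 151 bases before) and 1 to TTTGAA (185 bases before). On either strand, CCAAT occurred in 37.4% of the 32851 promoter windows of this length, GGGCGG in 35.7% and TTTGAA in 17.9%. Neither window held AACAAT, a SOX-type motif found in 10.7% of windows, nor TATAAA, found in 13.6%. The Sox11 window had 21 CpG and 58.7% GC, against 12 CpG and 52% GC for Sox4. Of the 8 genes, Sox2 and Sox5 were also in the table, and AACAAT occurred in 0 of the 4.

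The endothelial gene Sox18 was lower in CS lungs, and it was the only 1 of the 8 genes past the threshold of the study. Sox17 was also lower and Sox4 higher at an unadjusted p under 0.05, but both differences were smaller than the 1.2-fold limit. Sox2, Sox5, Sox7, Sox9 and Sox11 did not pass either test. The threshold of the study requires more than a 1.2-fold change in either direction and a limma p below 0.05 before adjustment. It called 12.5% of the 8 genes, against 4.41% of the 40543 probe sets tested and 2.19% in the direction of Sox18. Unadjusted p under 0.05 was reached by 3 genes (37.5%), against 7.49% of all probe sets. When limma p-values were held to a false discovery rate of 10%, 0 of the 8 genes passed, and also 0 of all probe sets. Differences are given as CS minus AIR in log2 intensity, with the standard error (SE) and the 95% confidence interval from limma. In whole lungs, fewer cells of a type and less RNA per cell cannot be told apart.

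**Figure D1:**
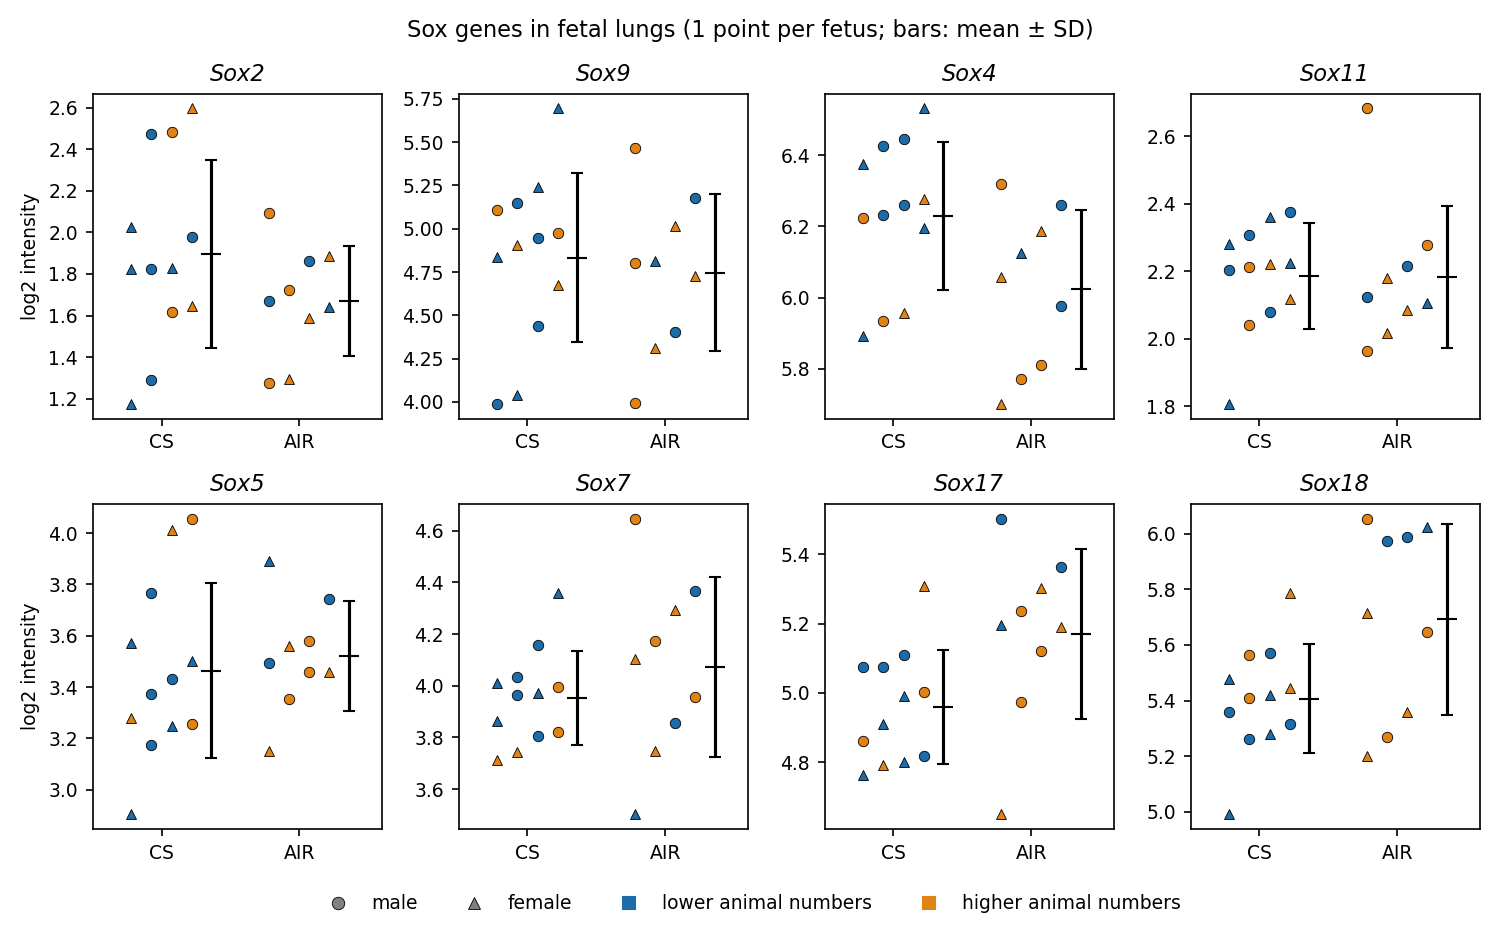
Log2 intensity of each Sox gene, with 1 panel per gene, 1 point per fetus, CS left of AIR, and bars for the mean ± SD (circles males, triangles females; blue for the lower and orange for the higher range of animal numbers in the labels). The 3 blue AIR points of Sox18 lie between 5.97 and 6.02, above all CS points, whereas the orange CS and AIR points overlap.

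Sox18, a regulator of vascular and lymphatic endothelium, ranged over 4.99, 5.42 and 5.79 (lowest, median and highest log2 intensity) in CS lungs and over 5.20, 5.71 and 6.05 in AIR lungs. The groups overlapped, but 4 of 9 AIR lungs lay above every CS lung, and 11 of 12 CS lungs lay below the AIR mean. CS lungs averaged 5.41 ± 0.20 (SD, n = 12), against 5.69 ± 0.34 (SD, n = 9) for AIR lungs. The difference of -0.29 (SE 0.12, interval -0.53 to -0.04) was a 1.22-fold lower level, with an unadjusted limma p of 0.0226, an adjusted p of 0.584 and a two-sided exact permutation p of 0.0274. Leaving out 1 array ended the call in 5 of 21 cases (CS female 8, AIR males 1, 2 and 4, and AIR female 6), and the difference then lay between -0.25 and -0.24.

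Sox17, which acts with Sox18 in endothelial cells and marks arterial endothelium, had 4.76, 4.95 and 5.31 in CS lungs and 4.65, 5.20 and 5.50 in AIR lungs (lowest, median and highest). The lowest value of all belonged to an AIR lung (female 9), while 11 of 12 CS lungs were below the AIR mean. The difference was -0.21 (SE 0.092, interval -0.40 to -0.02; 1.16-fold lower), with an adjusted limma p of 0.616 and an exact permutation p of 0.0296. Without AIR female 9 it was -0.28 and passed the threshold. Sox7, the third SoxF gene, had 3.71, 3.97 and 4.36 in CS lungs and 3.50, 4.11 and 4.65 in AIR lungs. Its AIR values enclosed all CS values, and the difference of -0.12 (SE 0.12, interval -0.36 to 0.12, adjusted limma p = 0.871) was within the spread between fetuses.

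Sox4, expressed widely in progenitors and immature cells, had 5.89, 6.25 and 6.53 in CS lungs and 5.70, 6.06 and 6.32 in AIR lungs. The groups overlapped, with 4 CS lungs above every AIR lung and 3 AIR lungs below every CS lung. The difference was 0.21 (SE 0.096, interval 0.01 to 0.41; 1.15-fold higher), with an adjusted limma p of 0.653 and an exact permutation p of 0.0430. A second probe set of Sox4 gave the same difference of 0.21 (unadjusted limma p = 0.0449), although both probe sets correlated over fetuses at r = 0.61. Sox11, the other SoxC gene, is known from immature neurons and mesenchyme and lay near the median intensity of the arrays. It had 1.81, 2.22 and 2.38 in CS lungs and 1.96, 2.12 and 2.68 in AIR lungs, and its interval of -0.17 to 0.18 around a difference of 0.0025 held no difference beyond 1.2-fold.

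Sox2, the gene of the proximal epithelium, lay below the median of the arrays, where differences can go unseen. It had 1.17, 1.83 and 2.60 in CS lungs and 1.28, 1.67 and 2.09 in AIR lungs. CS lungs reached both above and below the AIR range, and the difference of 0.23 (SE 0.16, interval -0.11 to 0.56, adjusted limma p = 0.803) did not pass. Sox9, the gene of the distal tips and of cartilage, had 3.99, 4.93 and 5.70 in CS lungs and 3.99, 4.81 and 5.47 in AIR lungs. Its SD of 0.49 in CS and 0.46 in AIR lungs was larger than its difference of 0.09 (SE 0.20, interval -0.32 to 0.50). Sox5, a partner of SOX9 in chondrocytes, had 2.90, 3.40 and 4.06 in CS lungs and 3.15, 3.49 and 3.89 in AIR lungs. CS lungs spread on both sides of the AIR range, and the difference was -0.06 (SE 0.13, interval -0.32 to 0.21).

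The animal numbers in the labels fall into a lower range (8 CS and 3 AIR fetuses) and a higher range (4 CS and 6 AIR fetuses) with a wide gap between them. The labels do not say what the ranges stand for. CS effects were therefore also estimated within each range, in 1 limma fit of the 4 range-by-exposure means. In the lower range, the endothelial genes Sox18 and Sox17 were lower in CS lungs past the threshold, or 25% of the 8 genes against 8.25% of all probe sets and 4.87% in the same direction. In the higher range 0 of the 8 genes passed, against 4.27% of all probe sets.

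In the lower range, Sox18 had 4.99, 5.34 and 5.57 (lowest, median and highest) in the 8 CS lungs, against 5.97, 5.99 and 6.02 in the 3 AIR lungs. All CS lungs lay below all AIR lungs, which held for 1.83% of all probe sets. The difference was -0.66 (interval -0.98 to -0.35; 1.58-fold lower), with a limma p of 2.83e-04 and an adjusted p of 0.0507, past a false discovery rate of 10% that 1.05% of all probe sets reached. Sox17 did not overlap between the groups either, with 4.76, 4.95 and 5.11 in CS lungs against 5.20, 5.36 and 5.50 in the AIR lungs. Its difference was -0.41 (limma p = 0.00624, adjusted p = 0.247). For both genes the exact permutation p was 0.00606, the smallest that 165 regroupings allow.

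In the higher range, Sox18 had 5.41, 5.44, 5.56 and 5.79 in the 4 CS lungs, against 5.20, 5.50 and 6.05 (lowest, median and highest) in the 6 AIR lungs. All CS values fell inside the AIR range, and the difference was 0.01 (interval -0.29 to 0.31). The effects in the 2 ranges differed by -0.67 for Sox18 (lower minus higher range, interval -1.11 to -0.24, limma p = 0.00423, adjusted p = 0.425). For Sox17 they differed by -0.32 (p = 0.0977), so a difference between the ranges was not shown for that gene. In AIR lungs alone, Sox18 was 0.46 higher in the lower range than in the higher range (limma p = 0.00898, adjusted p = 0.739), past the threshold that 5.27% of probe sets reached, and 3.39% in that direction. In CS lungs the same contrast called 0 of the 8 genes, against 6.02% of probe sets. With the range as a block, the CS effect was -0.31 for Sox18 (limma p = 0.0221), -0.24 for Sox17 (limma p = 0.0214) and 0.15 for Sox4 (limma p = 0.140), so that Sox4 no longer had an unadjusted p under 0.05.

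Of the other 6 genes, 0 passed the threshold within either range. Sox5 had a difference of -0.34 in the lower range (limma p = 0.0777) and of 0.22 in the higher range (limma p = 0.210). Its effects differed by -0.56 (limma p = 0.0366, adjusted p = 0.691), and Sox5 and Sox18 were the 2 of 8 genes past the threshold for that contrast, or 25% against 6.75% of probe sets. Without CS male 2, CS male 5, CS female 12, AIR male 2, AIR female 6 or AIR female 8 Sox18 alone passed. Sox7 had a difference of 0.11 in the lower range and of -0.34 in the higher range, where 4 of 6 AIR lungs lay above every CS lung (limma p = 0.0521, exact permutation p = 0.0762). Sox2 had 0.08 in the lower and 0.44 in the higher range (limma p = 0.0791, exact permutation p = 0.138). For Sox4 the values were 0.17 and 0.12, both smaller than the pooled 0.21. The 8 CS arrays of the lower range and the 6 AIR arrays of the higher range make up most of each group, so exposure and range were partly confounded in the pooled comparison.

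**Figure D2:**
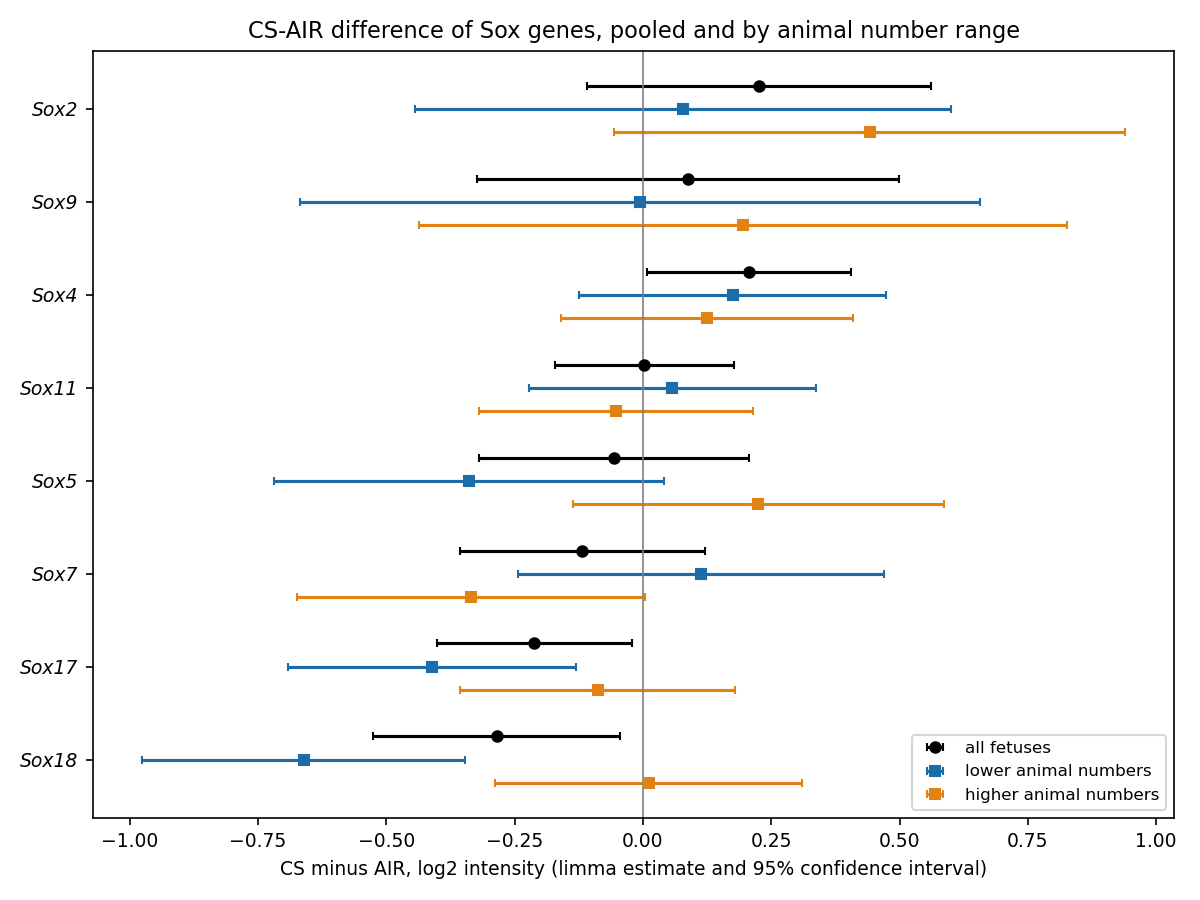
CS minus AIR difference in log2 intensity of each Sox gene (points) with 95% confidence intervals (bars), over all fetuses (black) and within the lower (blue) and higher (orange) range of animal numbers. The interval of Sox18 in the lower range, -0.98 to -0.35, lies wholly below 0, and that in the higher range, -0.29 to 0.31, spans it.

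The effect of CS was also estimated within each sex. In females 0 of the 8 genes passed the threshold, against 5.38% of probe sets. In males Sox18 passed (12.5% of the genes, against 4.91% of probe sets and 2.39% in that direction), with a difference of -0.37 (interval -0.71 to -0.04, adjusted limma p = 0.877, exact permutation p = 0.0411). All 6 CS males lay below the AIR male mean, and the call was lost without CS males 1, 3 or 4 or AIR males 1, 2 or 4, each left out in turn. In females Sox18 had a difference of -0.17 (interval -0.53 to 0.19), and 5 of 6 CS females lay below the AIR female mean. The difference between the sexes was itself tested, and 0 of the 8 genes passed, against 4.39% of probe sets. For Sox18 the female effect minus the male effect was 0.20 (interval -0.29 to 0.69), and the lowest p of the 8 genes was that of Sox7 (0.27, limma p = 0.249).

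Of 32 endothelial genes that work beside the SoxF factors, such as VEGF receptors and junction genes, 0 were higher and 2 lower in CS lungs past the threshold, namely Car4, the carbonic anhydrase of lung capillaries (-0.90), and Tie1, an endothelial receptor (-0.26). The median difference of the list was -0.10, against 0.00211 over all 22178 genes tested by symbol, of which 2.46% were higher and 1.93% lower past the threshold. Flt1, a VEGF receptor, had -0.20 (limma p = 0.00743), Vwf, the von Willebrand factor, -0.26 (limma p = 0.00897) and Egfl7, a factor secreted by endothelium, -0.16 (limma p = 0.0189), all within the 1.2-fold limit. Within the ranges the median of the list was -0.20 in the lower and 0.03 in the higher range. With the mean of the endothelial list as a covariate, Sox18 had a CS effect of -0.09, Sox17 of -0.04 and Sox2 of 0.40. Sox2, which lay below the array medians, then passed the threshold in place of Sox18 (limma p = 0.0392, adjusted p = 0.9998), as did 1332 of the 40543 probe sets in all. The mean of the list was itself lower in CS lungs (median 5.34, against 5.50 in AIR). The covariate therefore takes up part of the exposure contrast, and no conclusion is drawn from it.

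On the side of SOX2, 19 genes of the conducting airway were measured, with 1 higher and 4 lower in CS lungs past the threshold and a median of -0.14. The 4 were Cyp4b1 (-0.85) and Cyp2f2 (-0.36), cytochromes P450 of club cells, and the secretoglobins Scgb3a1 (-1.002) and Scgb1a1 (-0.71). Mcidas, a regulator of multiciliated cells, was higher (0.40). Of the other genes of ciliated cells in the list, Foxj1 (-0.18), Tppp3 (-0.21), Dnah5 (-0.14), Cdhr3 (-0.14) and Rfx2 (-0.05) were lower. Ccno (0.15) and Rfx3 (0.09) were higher, and all of these stayed within the 1.2-fold limit. The median of the list was -0.41 in the lower and 0.02 in the higher range, whereas Sox2 itself did not pass in either. On the side of SOX9, 2 of 20 distal tip genes were higher and 0 lower, with a median of 0.02. These were Foxp2, a transcription factor of distal epithelium (0.50), and Clu, encoding clusterin (0.45). Others went both ways within the 1.2-fold limit. Spry2 (-0.14, limma p = 0.0312), Sftpc (-0.12), Dusp6 (-0.12), Gata6 (-0.10) and Id2 (-0.07) were lower. Foxp1 (0.16, limma p = 0.0143), Wnt7b (0.23), Bmp4 (0.18), Mycn (0.17) and Etv5 (0.09) were higher. In the lower and the higher range, Foxp2 had 1.07 and -0.08 and Clu 0.73 and 0.14. Among 18 cartilage genes 3 were higher and 1 was lower, with a median of 0.07. The higher ones were the collagens Col11a2 (0.28) and Col9a2 (0.27) and Cytl1 (0.71), and the lower one the matrix gene Chad (-0.62). Col11a2 had a mean log2 intensity of 2.04, below the array medians. In the lower and the higher range, Cytl1 had 1.399 and 0.094 and Chad -1.366 and 0.131. Other cartilage genes went both ways within the 1.2-fold limit. Ucma (-0.21), Cnmd (-0.15) and the collagen Col2a1 (-0.07) were lower, among others. Acan (0.20), Matn3 (0.12) and the collagen Col9a3 (0.12) were higher, among others. Of 11 genes linked to SoxC factors 2 were higher, Tead2, a transcription factor of the Hippo pathway (0.29), and Stmn1, a microtubule regulator (0.46), and 0 lower, with a median of 0.06. Tead2 had 0.61 in the lower and 0.009 in the higher range, and Stmn1 0.83 and 0.11. Among the 12 other Sox genes 0 were higher and 1 was lower, Sox8 (-0.27, limma p = 0.0235), which lay below the array medians in both groups. Sox21 (0.23, limma p = 0.0162), which also lay below the array medians in both groups, and Sox6 (0.23, limma p = 0.0366) stayed within the 1.2-fold limit.

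Lists of dividing cells and of other tissues were read on the same arrays. All 11 dividing-cell genes were higher in CS lungs past the threshold, with a median of 0.54 (0.98 in the lower and 0.07 in the higher range), and the mean of the list ranged from 5.50 to 6.50 in CS and from 4.82 to 5.94 in AIR lungs. Ccnb2, a mitotic cyclin, was higher by 0.78. With that mean as a covariate, a setting added after the data had been seen, the CS effect was 0.0044 for Sox4, -0.0035 for Sox17 and -0.20 for Sox18, and 0 of the 8 genes passed the threshold, against 1520 of the 40543 probe sets. As the mean of the dividing-cell list differed between the groups, this covariate also takes up part of the exposure contrast. The mean of the oesophagus genes was more than 1 above its median on 2 CS and 3 AIR arrays, that of heart muscle on 2 CS and 3 AIR, that of thymocytes on 2 CS and 1 AIR and that of skeletal muscle on 0 CS and 2 AIR. The median CS difference was -0.45 for the 12 heart muscle genes, of which 2 were lower past the threshold (Ryr2 -0.62 and Myl4 -0.56). It was -0.45 for 11 skeletal muscle genes, 0.42 for 9 thymocyte genes and -0.22 for 11 oesophagus genes, with 0 past the threshold in each of these lists. Of the 10 lung markers 0 were higher and 3 lower past the threshold, the surfactant genes Sftpb (-0.43) and Sftpa1 (-0.45) and the club cell gene Scgb1a1 (-0.71), and their median was -0.18 (-0.33 in the lower and 0.04 in the higher range). Without the 10 arrays high in another tissue, 8 CS and 3 AIR arrays were left. The difference was then -0.48 for Sox18 (limma p = 0.00265), -0.25 for Sox17 (limma p = 0.0714) and 0.27 for Sox4 (limma p = 0.0908). Of the 8 genes Sox18 alone passed the threshold, against 2697 of the 40543 probe sets. The part of the lung markers in the values of Sox17 and Sox18 was not tested, and that of dividing cells not beyond the covariate.

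The 8 genes were correlated with each other over the 21 fetuses, and of 28 pairs 1 had an adjusted permutation p under 0.05. This was the endothelial pair Sox17 and Sox18, with Pearson r = 0.64 (permutation p = 0.00172, adjusted p = 0.0482) and Spearman rho = 0.52 (permutation p = 0.0162, adjusted p = 0.151). It was 0.54 without the 2 fetuses farthest from the median of Sox17, 0.36 in CS, 0.63 in AIR, 0.71 in the lower range and 0.55 in the higher range. Sox4 and Sox17 ran in opposite directions (r = -0.56, permutation p = 0.0083, adjusted p = 0.0784; rho = -0.57, permutation p = 0.00839, adjusted p = 0.151), with r = -0.53 without the 2 farthest fetuses, -0.56 in CS and -0.35 in AIR, -0.57 in the lower range and -0.75 in the higher range. Sox2 and Sox5 had r = 0.55 (permutation p = 0.0084, adjusted p = 0.0784; rho = 0.35, permutation p = 0.123, adjusted p = 0.490), with r = 0.26 without the 2 farthest fetuses, 0.81 in CS, -0.14 in AIR, 0.41 in the lower range and 0.67 in the higher range. The relation therefore did not hold without those 2 fetuses or within AIR. Sox2 and Sox9, the proximal and distal genes, had r = 0.08. Sox7, the third SoxF gene, had r = 0.10 with Sox17 and -0.01 with Sox18.

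**Figure D3:**
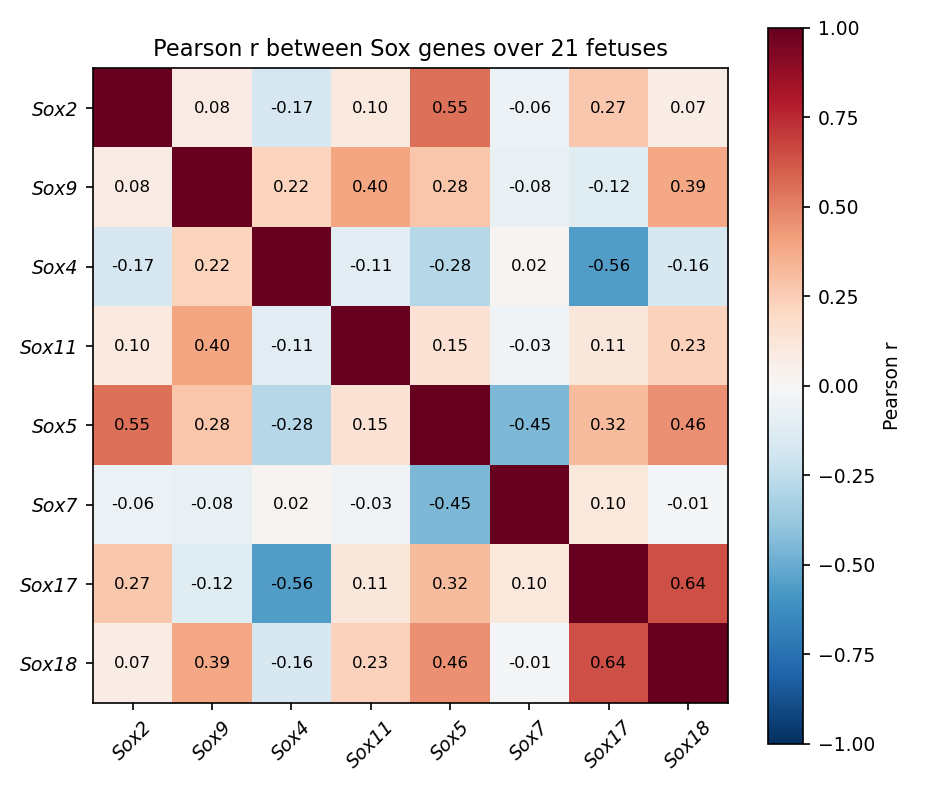
Pearson r between the 8 Sox genes over 21 fetuses, with red for positive and blue for negative values and r printed in each square. The highest value is that of Sox17 with Sox18 (0.64) and the lowest that of Sox4 with Sox17 (-0.56).

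Each gene was also set against the mean of 7 lists, 56 relations in all, of which 8 had an adjusted permutation p under 0.05 for r. Sox17 correlated with the mean of the 32 endothelial genes, which holds no Sox gene (r = 0.79, permutation p = 5e-05, adjusted p = 0.00131; rho = 0.80, permutation p = 3e-05, adjusted p = 0.00084). It was 0.71 without the 2 farthest fetuses, 0.50 in CS, 0.91 in AIR, 0.90 in the lower and 0.77 in the higher range. Sox18 followed the same list (r = 0.70, permutation p = 0.00037, adjusted p = 0.00355; rho = 0.64, permutation p = 0.00235, adjusted p = 0.0219), at 0.71 without the 2 farthest fetuses, 0.62 in CS, 0.61 in AIR, 0.83 in the lower and 0.41 in the higher range. Sox7, the third SoxF gene, showed no such relation (r = 0.06, permutation p = 0.808, adjusted p = 0.930), with -0.36 in CS and 0.10 in AIR. Sox4 followed the 11 dividing-cell genes (r = 0.71, permutation p = 0.00038, adjusted p = 0.00355; rho = 0.69, permutation p = 0.00063, adjusted p = 0.00706), at 0.66 without the 2 farthest, 0.67 in CS, 0.56 in AIR, 0.68 in the lower and 0.79 in the higher range. Sox17 ran against that list (r = -0.76, permutation p = 7e-05, adjusted p = 0.00131; rho = -0.75, permutation p = 0.00011, adjusted p = 0.00205), at -0.67 without the 2 farthest, -0.45 in CS, -0.88 in AIR, -0.92 in the lower and -0.65 in the higher range. The other 4 relations were those of Sox17 with the lung markers (r = 0.80, rho = 0.83) and the conducting airway genes (r = 0.73, rho = 0.70), and those of Sox18 (r = 0.61, rho = 0.60) and Sox4 (r = -0.64) with the lung markers. Sox17 with the lung markers had the highest r of the 56 relations (adjusted permutation p = 5.6e-04). It was 0.71 in CS, 0.89 in AIR, 0.94 in the lower and 0.79 in the higher range. The relation of Sox17 was therefore not particular to the endothelial list. The lung markers share Cdh5 with the endothelial and Scgb1a1 with the airway list. Sox2, Sox9 and Sox5 did not follow the lists of their lineages at an adjusted permutation p under 0.05. Sox2 had r = 0.25 with the airway genes (adjusted p = 0.511). Sox9 had 0.26 with the distal tip genes (adjusted p = 0.511) and -0.03 with the cartilage genes (adjusted p = 0.958). Sox5 had -0.17 with the cartilage genes (adjusted p = 0.771). The arrays share litters that are not named, so the fetuses are not fully independent.

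**Figure D4:**
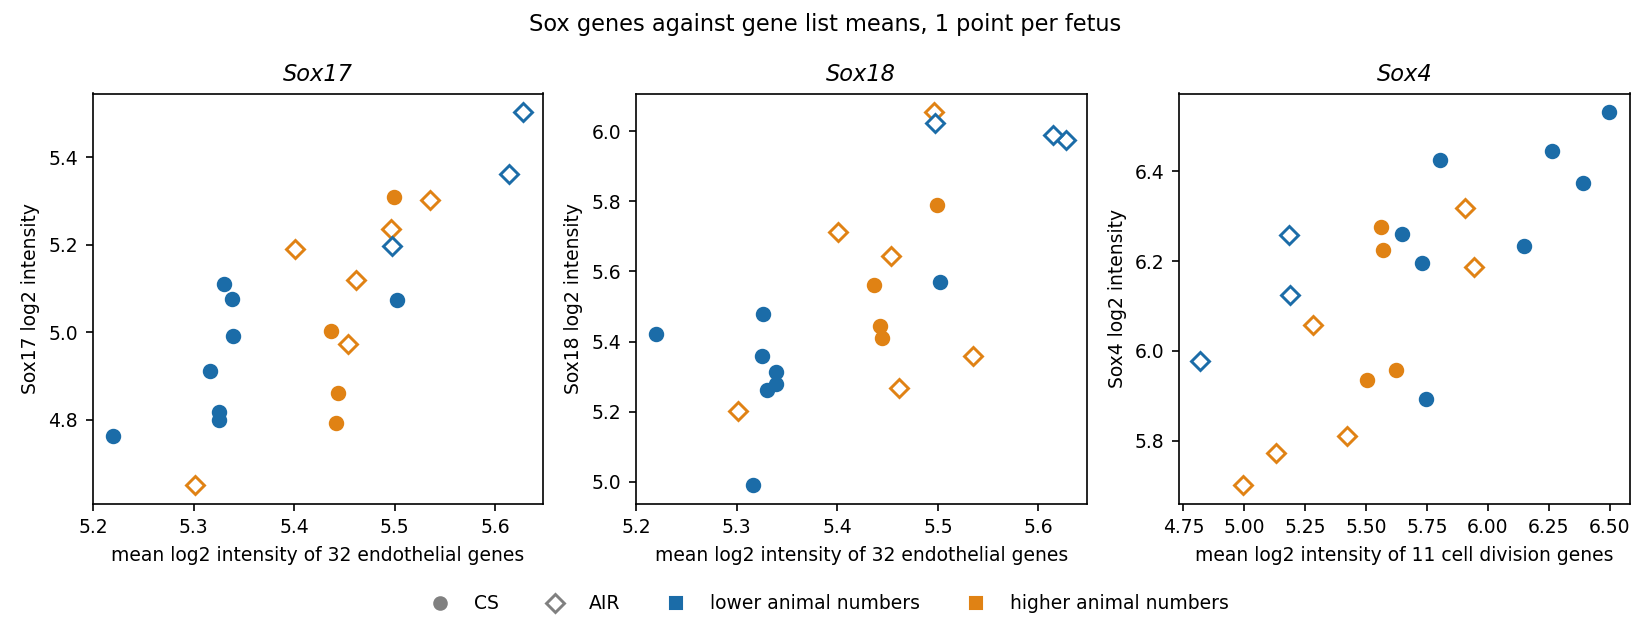
Log2 intensity of Sox17 and Sox18 against the mean of 32 endothelial genes and of Sox4 against the mean of 11 cell division genes, 1 point per fetus (filled circles CS, open diamonds AIR; blue for the lower and orange for the higher range of animal numbers). Pearson r in the panels is 0.79, 0.70 and 0.71 over 21 fetuses.

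Of the 22177 other genes, those most like each Sox gene were found by Pearson r over the 21 fetuses after the mean of each exposure group was taken off, as a description with no test. For Sox17 these were Kit, a receptor tyrosine kinase (r = 0.84), Nfkbiz, a regulator of NF-kB (0.81), and Car8 (0.79), and for Sox18 Smpd4 (0.80), Bik (0.78) and Tbx3, a T-box factor (0.76). For Sox4 they were Mdn1, a factor of ribosome assembly (0.84), Gmps, an enzyme of guanine nucleotide synthesis (0.81), and Nuf2, a kinetochore protein (0.80). Sox2 was nearest to Flt4, the receptor of lymphatic endothelium (0.75), Eepd1 (0.73) and Hexim1 (0.73), and Sox5 to Gpr37 (0.75), LOC100039029 (0.74) and Cebpa (0.74). Sox7 was nearest to Mir181b-2 (0.75), Pnpla6 (0.74) and Adipor1 (0.72), Sox9 to Samt2b (0.72), Tchp (0.70) and F930017D23Rik (0.69), and Sox11 to Vmn2r7 (0.78), Noxa1 (0.76) and Pisd-ps2 (0.73). For Sox11 these r were 0.96, 0.87 and 0.86 in AIR, where male 4 stood apart, against 0.46, 0.59 and 0.54 in CS. Some other relations also differed between the groups. Sox5 had r = 0.90 in CS and 0.20 in AIR with LOC100039029, and 0.83 and 0.28 with Cebpa, but 0.77 and 0.87 with Gpr37. Sox2 with Eepd1 had 0.81 in CS and 0.33 in AIR, and Sox7 with Adipor1 0.35 in CS and 0.92 in AIR. Vmn2r7, Gpr37, Samt2b and F930017D23Rik lay below the array medians, at mean log2 intensities of 1.21, 1.19, 1.44 and 1.64.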

How the data were processed

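Lungs of 21 mouse fetuses were measured on mRNA arrays, 1 array per fetus. The authors summarized the scans with Affymetrix Expression Console 1.3.0.187 by RMA, and deposited 1 normalized log2 intensity for each probe set and array. Values ranged from 0.045 to 12.6, with array medians of 2.10 to 2.20, and correlations between arrays were 0.950 to 0.971. Detection calls were not used here, and the number of arrays limits the precision.

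Of 41345 probe sets, 802 redundant ones were removed. CS was compared with AIR on 40543 by limma 3.58.1 in R 4.3.3, sexes merged, with Benjamini-Hochberg adjustment over all probe sets. Further fits held sex-by-exposure and range-by-exposure means. Only the fit of CS against AIR, with no further terms, was tested on simulated data. Permutation tests, two-sided, used Python 3.11.15 and scipy 1.17.1, exact over fetuses and with 100000 resamples for correlations. The threshold was an absolute fold over 1.2 with an unadjusted p under 0.05.

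Named genes were the 8 Sox genes, the other Sox genes with the lowest p, 3 nearest genes per member and the lung markers. From the lists, genes past the threshold or with a low p were named, with further ciliated-cell, distal tip and cartilage genes beside them. Members and lists were chosen with earlier results of these data known. Alternatives changed the probe sets, variance model, normalization, blocks, covariates, threshold and arrays. Promoters came from RefSeq (GRCm38.p6).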

Additional observations from a re-analysis of the deposited data

Results flagged for a closer look

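Sox11 in AIR male 4 was 2.683 in log2 intensity, apart from the other 8 AIR lungs, of which the nearest had 2.277. The gap was 0.564 of the range of the 9 AIR lungs. Among 64 groups looked at in this way 1 stood out, and chance alone gives about 1 in 20 groups. At an unadjusted limma p under 0.05, the effect of CS differed between the lower and the higher range of animal numbers for Sox18 and Sox5. The difference was -0.67 for Sox18 (lower minus higher range, limma p = 0.00423, adjusted p = 0.425) and -0.56 for Sox5 (limma p = 0.0366, adjusted p = 0.691). Of all probe sets, 6.75% passed the threshold for this contrast.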

How the results depend on the processing

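The count of Sox genes past the threshold in CS against AIR (1, Sox18) was 2 in lower animal numbers (Sox17 and Sox18), and 0 in higher numbers, with the thymocyte, cartilage or dividing-cell mean as a covariate, at a fold over 1.5 and at a false discovery rate of 10%. Without a fold limit it was 3. The replicate block gave 2 (Sox4 0.27, Sox18 -0.32), but replicate numbers did not pair the fetuses, since 1 of 9 pairs correlated above 0.1 (range -0.07 to 0.13). With 1 array left out it was 0 to 2, with 2 without AIR female 9 and 0 without CS female 8, AIR males 1, 2 or 4 or AIR female 6. In females (0) it was 0 to 1, the 1 being Sox17 without AIR female 9. In males (1) it was 0 to 3 and, with arrays centred on named genes, 2. It was 0 without CS males 1, 3 or 4 or AIR males 1, 2 or 4, 2 without CS male 5 and 3 without AIR male 5. For the difference between number ranges (2) it was 1 to 3, and Sox18 kept its call without each array that gave 1 (CS male 2, CS male 5, CS female 12, AIR male 2, AIR female 6 and AIR female 8). Sign changes were seen for genes that passed no threshold, and for Sox18 in higher numbers (0.011). Sox5 was 0.22 in higher numbers and 0.030 with the endothelial covariate. Sox7 was 0.11 in lower numbers and 0.077 without arrays high in other tissue. Sox9 was -0.0053 in lower numbers, -0.17 with the dividing-cell covariate, -0.26 without arrays high in other tissue and -0.0070 to 0.18 with 1 array left out. Sox11 was -0.0026 with quantile normalization, -0.010 with arrays centred, -0.00071 with the range block, -0.053 in higher numbers, -0.011, -0.034 and -0.018 with the oesophagus, heart and dividing-cell covariates, -0.035 without arrays high in other tissue and -0.025 to 0.065 with 1 array left out. The cause of these changes was not tested. Sox2 and Sox11 lay near or below the array medians, which limits what could be seen of them.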
